A study of Caenorhabditis elegans with 16 samples.

Results

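The genes described here are 8 components of the apical junction and of cell polarity in *C. elegans* epithelia, chosen by name: *ajm-1*, *dlg-1*, *hmr-1*, *hmp-1*, *hmp-2*, *jac-1*, *let-413* and *erm-1*. They are 8 of the 19983 protein-coding genes for which RNA polymerase occupancy could be calculated. Targeted DamID (TaDa) was used to profile occupancy by a fusion of the *E. coli* DNA adenine methyltransferase Dam to RPB-6, an RNA polymerase subunit, in 2 epidermal cell types, the seam cells and the hypodermis, at the L4 and L2 larval stages. The fusion dam:rpb-6 was driven in seam cells by *srf-3i1* (strain MBA698) and in the hypodermis by *dpy-7syn1* (strain MBA688), and the control fusion dam:NLS-GFP by the same promoters (strains MBA692 and MBA693). Each strain carried a single-copy transgene inserted by MosSCI into EG6699, and each promoter and fusion is represented by 1 strain. L4 animals were collected 48 h and L2 animals 24 h after seeding, with 2 replicates for each of 8 combinations of promoter, fusion and stage (16 samples). DNA came from whole animals, so a smaller number of cells with a bound gene and less binding in each cell cannot be told apart.

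The apical junction is the belt of adhesive contacts that joins neighbouring epithelial cells and separates their apical surface from their basolateral one. In *C. elegans* it holds an upper cadherin-catenin complex, built from the cadherin HMR-1 and the catenins HMP-1, HMP-2 and JAC-1, and a lower complex of the scaffold DLG-1 and the coiled-coil protein AJM-1. LET-413, the worm Scribble, acts from the basolateral membrane in assembling the junction, and ERM-1 links the apical membrane to actin. The junctions of the seam cells with the surrounding hypodermis are classically outlined by AJM-1, while the hypodermal syncytium has few internal borders. In TaDa, adenines in GATC sites near a bound Dam fusion become methylated, and occupancy of a genomic GATC fragment is the log2 ratio of dam:rpb-6 to dam:NLS-GFP. Values above 0 therefore mean more methylation by the polymerase fusion than by the freely diffusing control.

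Occupancy of a gene was the mean log2 ratio of the fragments overlapping its gene body, weighted by the overlap, and the 8 genes covered 368 fragments. Each group had 2 values, so SD is given with n = 2, and the depth of each sample is unknown because the deposited profiles hold ratios without read counts. One seam L4 profile (replicate 1 over control 1) was left out: its fragments followed the log2 of control 2 over control 1 (r = 0.996) and not the same sample over control 2 (r = −0.348). Across genes, replicates correlated at r = 0.716 in seam cells at L4, 0.309 in seam cells at L2, 0.772 in hypodermis at L4 and 0.803 in hypodermis at L2. A list of 8 seam markers had medians of 1.88 and 1.24 in seam cells at L4 and L2, against −0.02 and −0.01 in the hypodermis at these stages. The median of 4 hypodermis markers was 0.79 in seam cells at L4 and 0.48 in seam cells at L2, against 1.30 in hypodermis at L4 and 1.71 in hypodermis at L2, with *dpy-7*, a cuticle collagen gene, at 4.0 in seam cells at L4. In seam cells at L2 a list of 4 body wall muscle markers had a median of 1.00 (0.43 in replicate 1 and 1.56 in replicate 2) and a range of 0.15 to 1.84, whereas its median was −0.38, −0.75 and −0.76 in seam cells at L4, hypodermis at L4 and hypodermis at L2. By the mean of 2 replicates none of these 4 muscle markers was at 0 or below in seam cells at L2. The lowest, *hlh-1*, had 0.15 with an SD of 1.18, so its sign was not fixed. The part of this muscle signal in the seam L2 values below was not tested.

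By their medians the genes lay above the middle of the genome. Their median occupancy was 0.49 in seam cells at L4, 0.19 in seam cells at L2, 0.25 in hypodermis at L4 and 0.43 in hypodermis at L2, where the medians of all genes were −0.01, 0.06, −0.02 and −0.02. The seam L2 median rested on its replicates unequally, at 0.09 in replicate 1 and 0.43 in replicate 2. By the mean of 2 replicates all 8 genes were above the median of all genes in each group, but by single replicates 3 were below it in replicate 1 of seam cells at L2 (*hmp-1*, *let-413* and *erm-1*) and 1 each in replicate 1 of seam cells at L4 (*jac-1*), replicate 2 of hypodermis at L4 (*erm-1*) and replicate 2 of hypodermis at L2 (*jac-1*). Both replicates were above 0 for 7 of the 8 genes in seam cells at L4 (25.6% of all genes), for 5 in seam cells at L2 (35.7%), for 6 in hypodermis at L4 (24.0%) and for 7 in hypodermis at L2 (31.6%). Averaged over the 4 groups, the order ran from *dlg-1* (1.36, higher than 97.6% of genes) through *hmp-2* (0.62), *let-413* (0.55), *ajm-1* (0.49), *hmp-1* (0.31) and *hmr-1* (0.20) to *erm-1* (0.09) and *jac-1* (0.08, higher than 68.0%). *dlg-1* was above *hmp-2*, the next in this order, in all 8 samples, and the replicates of these genes did not overlap in 2 of 4 groups. Each of the other neighbours in the order overlapped in 2 or more of the 4 groups, and the higher of each pair led in 5 or 6 of 8 samples, so their order is not fixed beyond the spread.

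**Figure D1:**
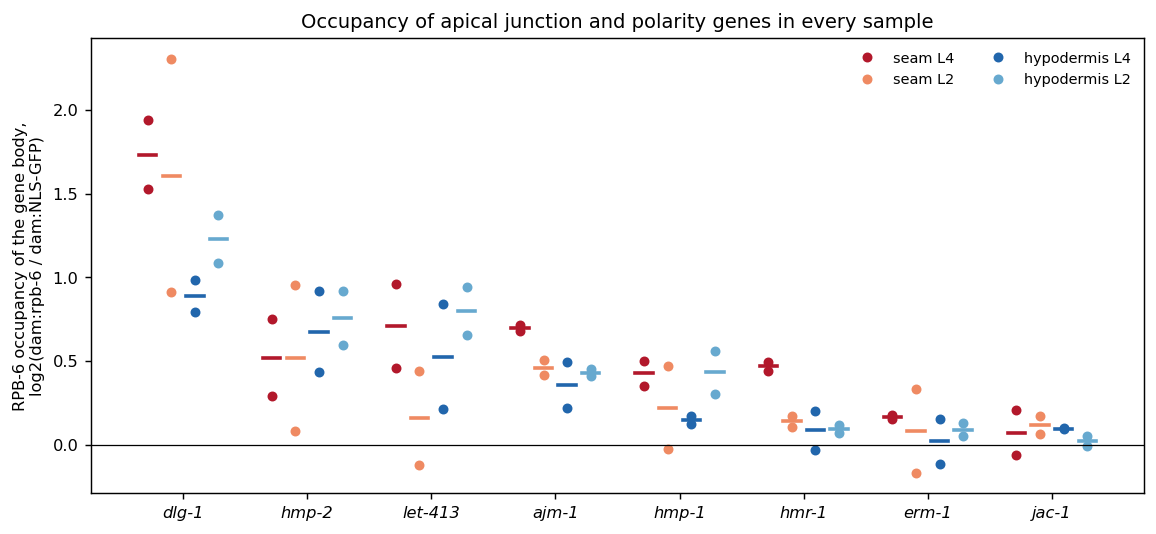
RPB-6 occupancy of each gene body (log2 ratio of dam:rpb-6 to dam:NLS-GFP, vertical axis) for the 8 genes, ordered by their mean over groups. Points are single replicates and bars are means of 2 replicates in seam cells at L4, seam cells at L2, hypodermis at L4 and hypodermis at L2. The *dlg-1* points lie between 0.79 and 2.30, and the *jac-1* points between −0.06 and 0.21.

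Occupancy over the control was tested per gene with limma across all 19983 genes (Benjamini-Hochberg adjusted p under 0.05). In seam cells at L4, 2 of the 8 genes passed, *ajm-1* (log2 0.70, SE 0.08, adjusted p = 0.024) and *hmr-1* (0.47, SE 0.07, adjusted p = 0.041), where 2.56% of all genes passed in this direction. In hypodermis at L2 only *ajm-1* passed (0.43, SE 0.08, adjusted p = 0.043, 5.33% of all genes). None passed in seam cells at L2 (0.2% of all genes) or hypodermis at L4 (1.49%). At an unadjusted p under 0.05 the counts of higher genes were 5 in seam cells at L4 (11.9% of all genes), 2 in seam cells at L2 (9.71%), 3 in hypodermis at L4 (10.1%) and 5 in hypodermis at L2 (15.2%). Counted by size, both replicates exceeded log2 1 for *dlg-1* alone, in seam cells at L4 (3.78% of all genes) and hypodermis at L2 (5.3%), and for no member in seam cells at L2 (1.48%) or hypodermis at L4 (3.16%). The calls depended on single replicates. Without either replicate of seam cells at L4 or of hypodermis at L2, *ajm-1* lost its call in seam cells at L4 (adjusted p = 0.066 to 0.185), and without any 1 replicate of seam cells at L4 or L2 or of hypodermis at L2, *hmr-1* in seam cells at L4 (0.059 to 0.228) and *ajm-1* in hypodermis at L2 (0.062 to 0.302) lost theirs.

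*dlg-1* encodes the worm Discs large, a scaffold of the MAGUK family that binds AJM-1. The gene (WBcel235 X:5479700-5484941, plus strand, 5242 bp, 21 fragments) has 1 annotated transcript. Its occupancy was 1.94 and 1.53 in seam cells at L4 and 0.91 and 2.30 in seam cells at L2. In the hypodermis it was 0.99 and 0.79 at L4, and 1.38 and 1.08 at L2. The seam L4 values were above all hypodermis values, while 1 seam L2 replicate lay among them and the other above them. The group means placed *dlg-1* above 98.0%, 98.9%, 94.2% and 94.7% of genes in seam cells at L4, seam cells at L2, hypodermis at L4 and hypodermis at L2. Its replicates had SDs of 0.29, 0.99, 0.14 and 0.21 in these groups. The limma fit used 1 spread for all 4 groups (SE 0.33 in each), to which the wide seam L2 pair contributed. With it the adjusted p over control was 0.060, 0.138, 0.273 and 0.099. Leaving out either seam L2 replicate takes that pair out of the shared spread, and the SE in seam cells at L4 was then 0.14. The misses were not firm, as some other settings gave a pass in seam cells at L4, seam cells at L2 or hypodermis at L2 (limma adjusted p = 0.015 to 0.049). Among them, averaging both controls makes the replicates of a group share controls, so their spread can be too small. The genes closest to *dlg-1* over the 8 samples were *imp-2* (Euclidean distance 0.92), *ucr-11* (0.94) and *lir-1* (0.95).

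The distribution of signal within *dlg-1* differed in shape between the groups. In seam cells the highest fragment was at the 5′ end, X:5479724-5480031. This stretch of 308 bp (59 exonic and 249 intronic bases) starts 24 bp into the gene and overlaps the annotated ncRNA C25F6.11 on the minus strand. It had 3.85 and 4.08 in seam cells at L4 and 3.4 and 3.0 in seam cells at L2, against 0.18 and −0.06 in hypodermis at L4 and 0.37 and 1.17 in hypodermis at L2. All 4 seam values were above all 4 hypodermis values, as in 1.72% of all fragments, and this fragment was picked for its seam values. In a fit across all single fragments, added after the data were seen, it passed over control in seam cells at L4 (adjusted p = 0.021) and missed in seam cells at L2 (adjusted p = 0.055). The difference of seam cells minus hypodermis over both stages was 3.17 (SE 0.22) and missed the threshold (adjusted p = 0.092), where 0.0026% of all fragments passed. In hypodermis at L2 the highest fragment lay 2254 bp into the gene, at X:5481954-5482171 (218 bp, 162 of them exonic). It had 2.58 and 2.87 in seam cells at L4, 0.07 and 2.60 in seam cells at L2, 2.54 and 1.33 in hypodermis at L4 and 4.30 and 4.30 in hypodermis at L2 (adjusted p over control 0.079). These 2 fragments are printed because they carry the highest signal of this gene in seam cells and in hypodermis at L2. The first is given from its GATC to 300 bases (X:5479722-5480021) and the second between its GATC sites (X:5481952-5482173), both on the plus strand with GATC in capitals.
*dlg-1* fragment highest in seam cells: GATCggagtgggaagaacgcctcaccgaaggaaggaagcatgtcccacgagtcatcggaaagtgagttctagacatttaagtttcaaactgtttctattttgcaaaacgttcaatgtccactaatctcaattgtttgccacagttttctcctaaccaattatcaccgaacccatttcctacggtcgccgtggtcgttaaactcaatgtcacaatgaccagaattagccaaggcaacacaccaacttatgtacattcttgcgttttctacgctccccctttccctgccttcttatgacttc
*dlg-1* fragment highest in hypodermis at L2: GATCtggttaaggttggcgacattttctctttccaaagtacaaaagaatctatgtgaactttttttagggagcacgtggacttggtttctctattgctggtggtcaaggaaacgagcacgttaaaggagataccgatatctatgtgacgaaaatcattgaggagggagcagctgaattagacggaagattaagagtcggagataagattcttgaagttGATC

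**Figure D2:**
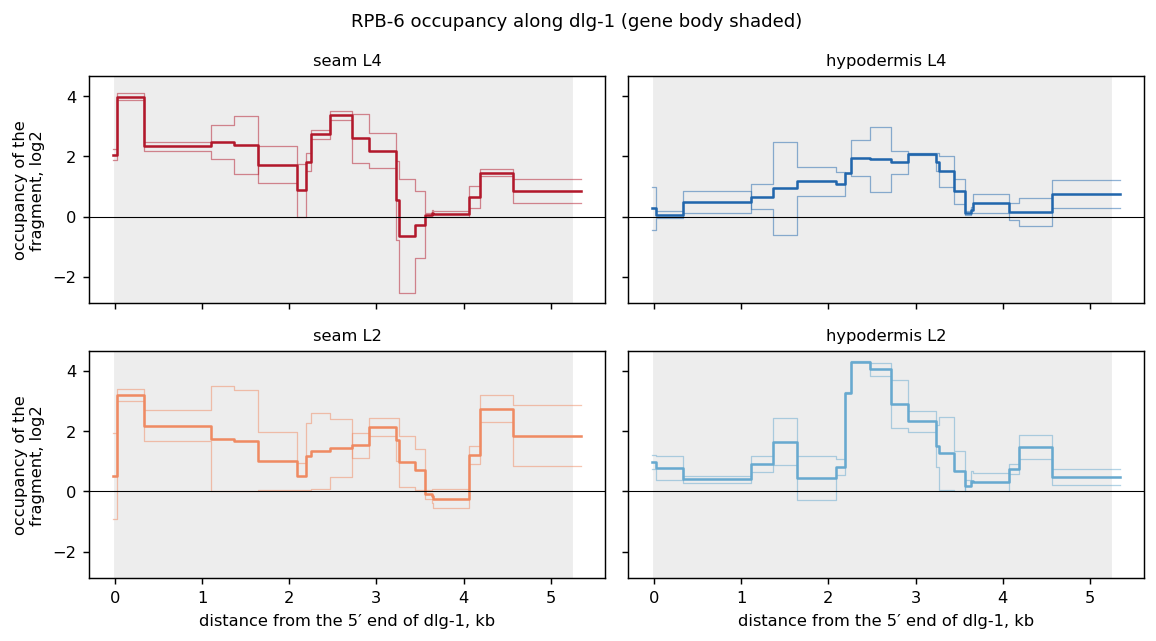
RPB-6 occupancy of single GATC fragments (log2, vertical axis) along *dlg-1* (distance from the 5′ end in kb), with seam cells on the left, hypodermis on the right and L4 above L2. Thin lines are replicates, thick lines their mean and the shaded area is the gene body. The first fragment stands at 3.97 and 3.20 in seam cells at L4 and L2, against 0.06 and 0.77 in hypodermis at L4 and L2.

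Comparing the ends of the gene, the third of the *dlg-1* gene body at the 3′ end was below the third at the 5′ end by 1.9 ± 0.80 in seam cells at L4 and by 0.77 ± 0.24 at L2 (SD, n = 2). For the hypodermis the 3′ minus 5′ difference was −0.06 ± 0.71 at L4 and −0.08 ± 0.18 at L2, and over the 12778 genes with at least 6 fragments the median was close to 0 in each group. Of the fragments of the 8 genes, 8 of 368 passed over control in seam cells at L4 (0.362% of all fragments), 1 of them in *dlg-1*, 6 in *hmr-1* and 1 in *ajm-1*, and none passed in the other 3 groups.

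*ajm-1* encodes the coiled-coil protein that gave the junction its standard marker. The gene (X:9082946-9113619, plus strand, 30674 bp, 75 fragments, 16 transcripts) had an occupancy of 0.72 and 0.68 in seam cells at L4 and 0.51 and 0.41 in seam cells at L2. In the hypodermis the values were 0.49 and 0.22 at L4 and 0.45 and 0.41 at L2. The seam L4 replicates were the highest 2 of the 8 values and the other 3 groups overlapped. The span of the shortest *ajm-1* transcript (C25A11.4e.1, 7810 bp) was above the rest of the gene in 4 of 8 samples. Some stretches stood far above the gene mean, but signal was not confined to them in seam cells at L4, where the median over fragments was 0.60. An exonic fragment of 269 bp at X:9106933-9107201 had 3.67 and 4.73 in seam cells at L4, 3.84 and 4.08 in seam cells at L2, 2.07 and 3.44 in hypodermis at L4 and 3.45 and 1.04 in hypodermis at L2, and so was occupied in all 8 samples. A fragment at X:9099174-9100194 was the one that passed over control in seam cells at L4 (0.85, adjusted p = 0.040).

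A further stretch of high signal lay in an *ajm-1* intron that contains 5 tRNA-Gln genes. These genes (X:9090627-9091628) are spanned by 7 of the 16 transcripts and lie in 3 fragments that cover 6.11% of the gene. RPB-6 is a subunit of RNA polymerases I, II and III alike, and tRNA genes are transcribed by RNA polymerase III, so that a ratio in this stretch does not tell the polymerases apart. Mean occupancy over the 5 tRNA genes was 2.40 and 3.07 in seam cells at L4, 0.19 and 1.82 in seam cells at L2, 2.07 and 2.03 in hypodermis at L4 and 2.33 and 1.07 in hypodermis at L2. All 631 tRNA genes had medians of 0.15, 0.31, 0.21 and 0.16 in these groups, with upper quartiles of 1.42, 1.19, 1.66 and 1.22. The mean of the 5 genes over both replicates was above the upper quartile in 3 groups and below it in seam cells at L2. Single genes ranged from 1.53 to 4.59 in seam cells at L4 and from 0.64 to 1.61 at L2. In the hypodermis they ranged from 1.25 to 3.46 at L4 and from 1.14 to 3.75 at L2. Not all 5 were thus above the quartile in the hypodermis, nor all below it in seam cells at L2. Without the 3 fragments, *ajm-1* averaged 0.59 in seam cells at L4 (adjusted p = 0.040), 0.43 in seam cells at L2, 0.26 in hypodermis at L4 and 0.36 in hypodermis at L2, where it no longer passed (adjusted p = 0.085). Leaving out all within 1 kb of these tRNA genes gave 0.57, 0.43, 0.20 and 0.34 in the same groups, and then seam cells at L4 missed the threshold too (adjusted p = 0.051). The 5 genes are printed because the *ajm-1* call in hypodermis at L2 was lost without their fragments, each on its own strand. Capitals mark matches to GTTCNANNC, the B box, an internal promoter element of tRNA genes, searched on the gene's strand and present in 95.9% of 612 nuclear tRNA genes.
H08J11.t5: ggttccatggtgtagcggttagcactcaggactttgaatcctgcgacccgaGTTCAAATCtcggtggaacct
H08J11.t1: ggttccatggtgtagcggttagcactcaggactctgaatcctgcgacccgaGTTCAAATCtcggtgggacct
H08J11.t4: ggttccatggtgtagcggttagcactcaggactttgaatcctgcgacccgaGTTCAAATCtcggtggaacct
H08J11.t2: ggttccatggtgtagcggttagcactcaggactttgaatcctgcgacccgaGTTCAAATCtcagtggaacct
H08J11.t3: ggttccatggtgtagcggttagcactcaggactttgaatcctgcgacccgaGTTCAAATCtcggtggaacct

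Each of the 5 genes is 72 bases long and 3 of them are identical. Counted from 1 at the 5′ end and with the base of the common sequence first, H08J11.t1 carries T34C and A68G and H08J11.t2 carries G63A. Short reads from near-identical copies can be placed at any of them, and how such reads were handled is not given in the sources used here.

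**Figure D3:**
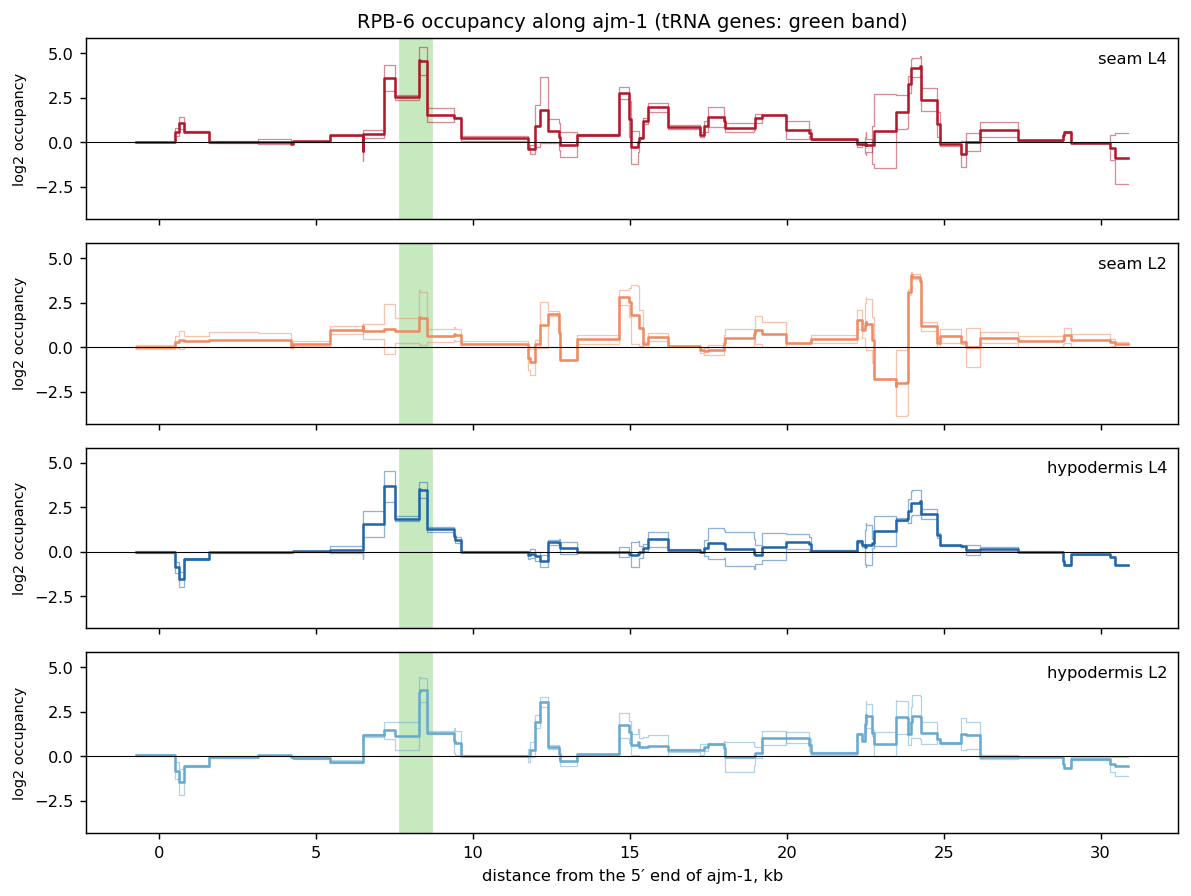
RPB-6 occupancy of single GATC fragments (log2, vertical axis) along *ajm-1* (distance from the 5′ end in kb) in seam cells at L4 and L2 and hypodermis at L4 and L2, from top to bottom. Thin lines are replicates, thick lines their mean, and the green band marks 5 tRNA genes, over which occupancy averaged 2.74, 1.01, 2.05 and 1.70 in these groups.

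JAC-1, a p120-catenin, binds the cadherin tail close to the membrane. Its gene *jac-1* (IV:15997835-16026847, minus strand, 29013 bp, 53 fragments, 8 transcripts) had the lowest mean of the 8: −0.06 and 0.21 in seam cells at L4, 0.17 and 0.07 in seam cells at L2, 0.10 and 0.09 in hypodermis at L4 and 0.05 and −0.01 in hypodermis at L2. The replicates of seam cells at L4 spanned the values of all other groups. Between 15.1% and 45.3% of *jac-1* fragments scored exactly 0, depending on the sample, and such scores count in the means. The average hid a difference between the ends of the gene in 7 of 8 samples, which was not tested. Its shortest transcript, Y105C5B.21d.1, spans the 8513 bp at the 3′ end (IV:15997855-16006367), and this span had −0.10 and 0.59 in seam cells at L4, 0.34 and 0.40 in seam cells at L2, 0.29 and 0.34 in hypodermis at L4 and 0.20 and 0.14 in hypodermis at L2. The rest of the gene had −0.05 and 0.05, 0.11 and −0.08, 0.02 and −0.01, and −0.01 and −0.07 in the same order of groups. The span of the short transcript was thus the higher one in 7 of 8 samples. Within the gene lie 142 annotated piRNA loci, whose own transcription the gene mean does not separate.

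The starts of the short transcript (d) and the longest one (a) of *jac-1* are printed because occupancy differed on either side of the first. Both run 250 bases before to 50 after the annotated start on the minus strand, at IV:16006318-16006617 for transcript d and IV:16026798-16027097 for transcript a. Capitals mark AGATA and TGATA on either strand (TATCT and TATCA on the strand printed), both GATA-factor motifs. In *dpy-7syn1*, AGATA, seen earlier in promoters of genes expressed in seam cells, was changed to TGATA, which has been associated with hypodermal expression. The window of transcript d holds 2 AGATA and 1 TGATA, and that of transcript a holds 1 AGATA and 0 TGATA. These motifs do not overlap there, and AGATA occurs in 45.1% and TGATA in 53.9% of 19973 windows of this length at gene starts.
start of *jac-1* transcript d: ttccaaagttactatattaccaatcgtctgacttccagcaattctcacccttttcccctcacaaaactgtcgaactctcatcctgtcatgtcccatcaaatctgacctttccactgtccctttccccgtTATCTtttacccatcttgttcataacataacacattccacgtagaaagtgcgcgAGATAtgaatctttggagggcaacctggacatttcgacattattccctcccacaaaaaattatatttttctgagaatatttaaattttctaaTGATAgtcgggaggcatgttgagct
start of *jac-1* transcript a: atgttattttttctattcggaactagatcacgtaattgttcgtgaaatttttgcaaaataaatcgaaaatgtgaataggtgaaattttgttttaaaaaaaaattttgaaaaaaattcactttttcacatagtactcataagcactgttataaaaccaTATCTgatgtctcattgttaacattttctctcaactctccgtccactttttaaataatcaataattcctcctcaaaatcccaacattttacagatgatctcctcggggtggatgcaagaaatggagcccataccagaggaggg

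*hmp-1* encodes the α-catenin that ties the complex to actin. The gene (V:11845871-11852166, plus strand, 6296 bp, 23 fragments, 7 transcripts) had 0.35 and 0.50 in seam cells at L4 and −0.03 and 0.47 in seam cells at L2. In the hypodermis it had 0.17 and 0.13 at L4 and 0.30 and 0.56 at L2. Its higher means (0.43 each) were thus those of seam cells at L4 and hypodermis at L2, and the replicates of seam cells at L2 spanned nearly the whole range. The span of its shortest transcript (R13H4.4c.1, 948 bp) was above the rest of the gene in 5 of 8 samples.

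*hmr-1*, the gene of the classical cadherin, is known to encode a short, epithelial cadherin and a longer form of neurons from an upstream start. The gene (I:11075755-11134667, minus strand, 58913 bp, 129 fragments, 5 transcripts) had 0.44 and 0.50 in seam cells at L4, 0.10 and 0.17 in seam cells at L2, 0.20 and −0.03 in hypodermis at L4 and 0.12 and 0.07 in hypodermis at L2. Both seam L4 values were above all 6 others. Over the span of the short transcript W02B9.1a.2 (I:11075755-11094526, 18772 bp), chosen after the data were seen, occupancy was 1.18 and 1.03 in seam cells at L4, 0.05 and 0.38 in seam cells at L2, 0.52 and 0.14 in hypodermis at L4 and 0.45 and 0.33 in hypodermis at L2. The upstream rest of the gene had 0.09 and 0.25 in seam cells at L4 and between −0.11 and 0.13 in the other groups. Within that rest lie the protein-coding gene Y52B11B.1 and the miRNA cel-mir-8190, and within the span the snoRNA W02B9.3. Their own transcription is not separated in these means. A list of 5 neuron markers had medians of −0.19, 0.23, −0.14 and −0.17 in seam cells at L4, seam cells at L2, hypodermis at L4 and hypodermis at L2. Its genes were not alike: in this order of groups *snb-1* had 1.56, 0.98, 1.34 and 1.84, and *unc-64* had 0.18 to 0.30. The lowest values of the list were −0.26, −0.16, −0.19 and −0.22. The span of the short transcript was higher in 7 of 8 samples, the exception being seam cells at L2 in replicate 1. The shortest transcript, W02B9.1e.1 (7682 bp), gave the same count with another exception, seam cells at L2 in replicate 2 (0.04 against 0.19 in the rest). In replicate 1 of that group it had 0.46 against 0.05, so the direction in seam cells at L2 depended on the span. In the span, the fragment at I:11093556-11093825 reached 5.00 ± 0.55 in seam cells at L4, and that at I:11085077-11085357 reached 4.08 ± 0.61 in hypodermis at L2 (SD, n = 2).

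Upstream of that span, a narrow intronic site of *hmr-1* stood out in seam cells at both stages. The site (I:11109980-11110405, 426 bp in 4 fragments, 0 exonic bases) had 4.57 and 4.16 in seam cells at L4 and 5.03 and 3.96 in seam cells at L2, against 0.26 and −0.45 in hypodermis at L4 and 0.08 and −0.12 in hypodermis at L2. The fragments on either side lay between −0.02 and 0.12 in all groups. The site was picked for its values, of which the 4 in seam cells were above the 4 in hypodermis (1.72% of all fragments), and with any pairing to a control the seam values were 3.32 to 5.03, except in the profile left out (−0.52). Its fragments passed over control in seam cells at L4 (adjusted p = 0.030 to 0.034) and missed in seam cells at L2 (0.054 to 0.067), and the difference of seam cells minus hypodermis over both stages was 3.42 to 5.06 with adjusted p = 0.092 to 0.108. As adjacent small fragments can share reads, these 4 are not independent. Leaving the site out changed the gene mean little, to 0.44, 0.11, 0.09 and 0.09 in seam cells at L4, seam cells at L2, hypodermis at L4 and hypodermis at L2.

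**Figure D4:**
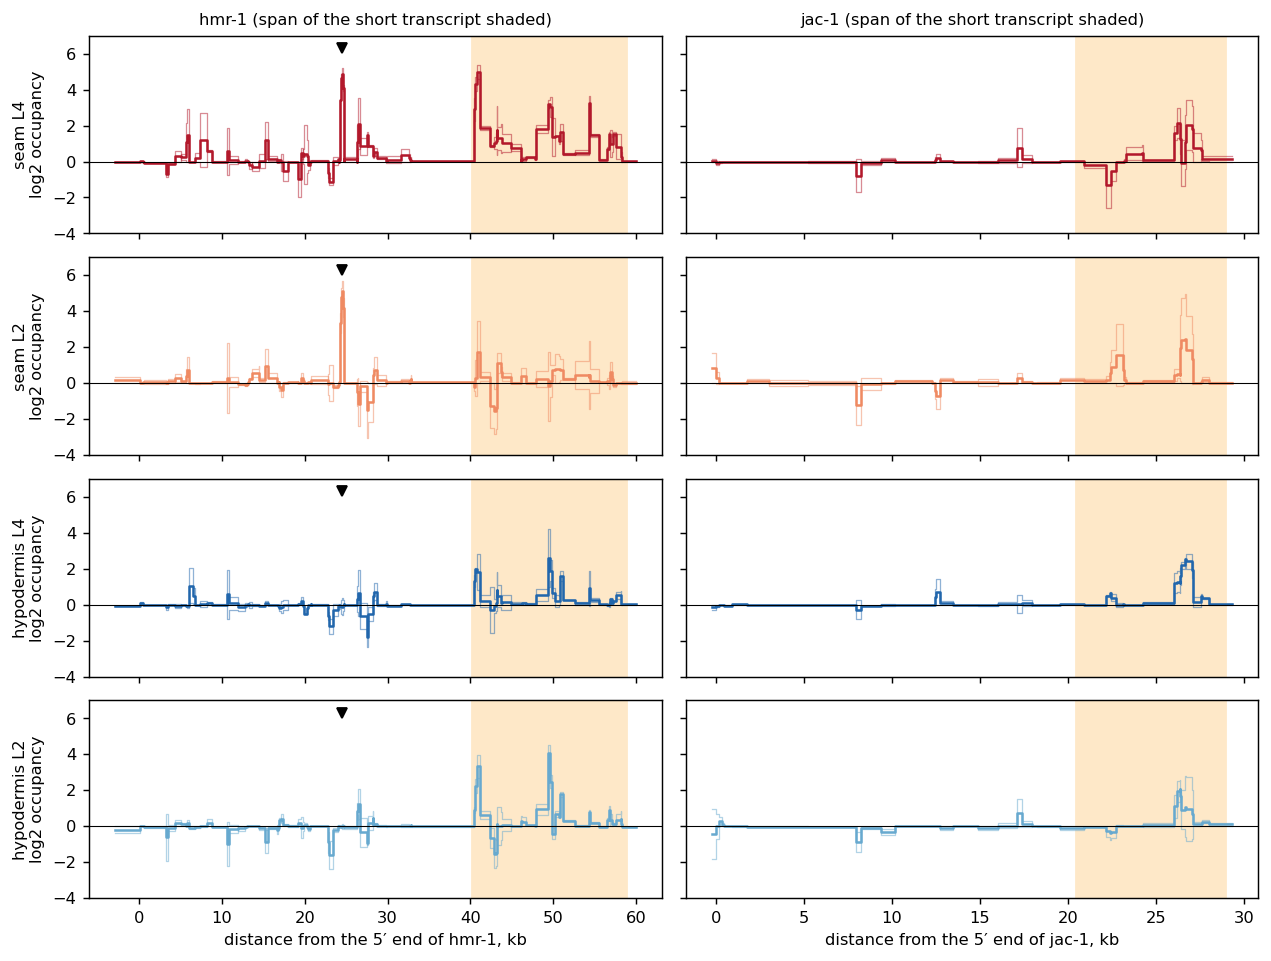
RPB-6 occupancy of single GATC fragments (log2, vertical axis) along *hmr-1* (left) and *jac-1* (right), by distance from the 5′ end in kb, in the 4 groups from seam cells at L4 (top) to hypodermis at L2 (bottom). Thin lines are replicates, thick lines their mean, shading marks the span of the short transcript, and the triangle marks the *hmr-1* intronic site, at 4.4 and 4.5 in seam cells at L4 and L2 against −0.09 and −0.02 in hypodermis at L4 and L2.

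*hmp-2* encodes the β-catenin of the junction, which joins HMR-1 to HMP-1. The gene (I:14738882-14742671, plus strand, 3790 bp, 25 fragments, 2 transcripts) had 0.29 and 0.75 in seam cells at L4, 0.08 and 0.95 in seam cells at L2, 0.92 and 0.43 in hypodermis at L4 and 0.92 and 0.60 in hypodermis at L2. All 8 values were above 0 and the groups overlapped throughout. The third of the gene body at its 3′ end was above the third at its 5′ end in 7 of 8 samples. Fragments at its ends are shared with K05C4.5 and K05C4.7, adjacent genes on the same strand, whose signal there cannot be told apart from that of *hmp-2*. With only the fragments of 1 gene the *hmp-2* mean was higher, 0.87 in seam cells at L4, 0.84 in seam cells at L2, 1.05 in hypodermis at L4 and 1.19 in hypodermis at L2. No group passed over control (adjusted p = 0.20 to 0.50).

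*let-413* encodes the LRR and PDZ protein of the basolateral membrane. The gene (V:7973078-7977776, minus strand, 4699 bp, 17 fragments, 6 transcripts) had 0.96 and 0.46 in seam cells at L4 and −0.12 and 0.44 in seam cells at L2. In the hypodermis it had 0.84 and 0.21 at L4 and 0.94 and 0.66 at L2. The seam L2 replicates were the lowest pair by mean, and the other 3 groups overlapped. *erm-1* encodes the single ezrin/radixin/moesin protein of the worm. The gene (I:5284026-5291604, minus strand, 7579 bp, 25 fragments, 2 transcripts, the fragment at one end shared with *dnj-4*) had 0.18 and 0.15 in seam cells at L4, −0.17 and 0.33 in seam cells at L2, 0.16 and −0.12 in hypodermis at L4 and 0.13 and 0.05 in hypodermis at L2. Its group means (0.16, 0.08, 0.02 and 0.09) were all near 0 and within the spread of the replicates of seam cells at L2. Between 4% and 68% of *erm-1* fragments scored exactly 0, depending on the sample, and such scores count in the means.

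To ask which of these genes differed between cell types, seam cells were set against the hypodermis at each stage. At L4, *hmr-1* was higher by 0.38 (SE 0.10) and *ajm-1* by 0.34 (SE 0.11) in seam cells, and these were the 2 of 8 genes under an unadjusted 0.05 (4.82% of all genes, in either direction). With limma neither passed adjustment (adjusted p = 0.79 and 0.89), and no gene of the genome did (0.0% of 19983). The values did not overlap for 4 of the 8 genes, higher in seam cells for *ajm-1*, *dlg-1*, *hmr-1* and *hmp-1* (19.8% of all genes), and for none in the lower direction (12.8%). The largest difference at L4 was that of *dlg-1* (0.84, SE 0.47, above an unadjusted 0.05). At L2 the picture was flatter: no member reached an unadjusted 0.05 (10.4% of all genes did, and 0.0% passed adjustment), *jac-1* alone was higher without overlap (24.2% of all genes) and *let-413* alone lower (15.2%). The *let-413* difference at L2, the largest, was −0.64 (SE 0.32, adjusted p = 0.56 in limma). Seam L2 values are those in which the muscle markers were also high. Over both stages, *hmr-1* was higher in seam cells by 0.21 (SE 0.07, limma adjusted p = 0.46), as 1 of 8 under an unadjusted 0.05 (9.04% of all genes, 0.0% after adjustment), and *dlg-1* by 0.61 (SE 0.33, adjusted p = 0.68). With 4 values against 4, no member was separate in the higher (2.94% of all genes) or lower (2.1%) direction.

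**Figure D5:**
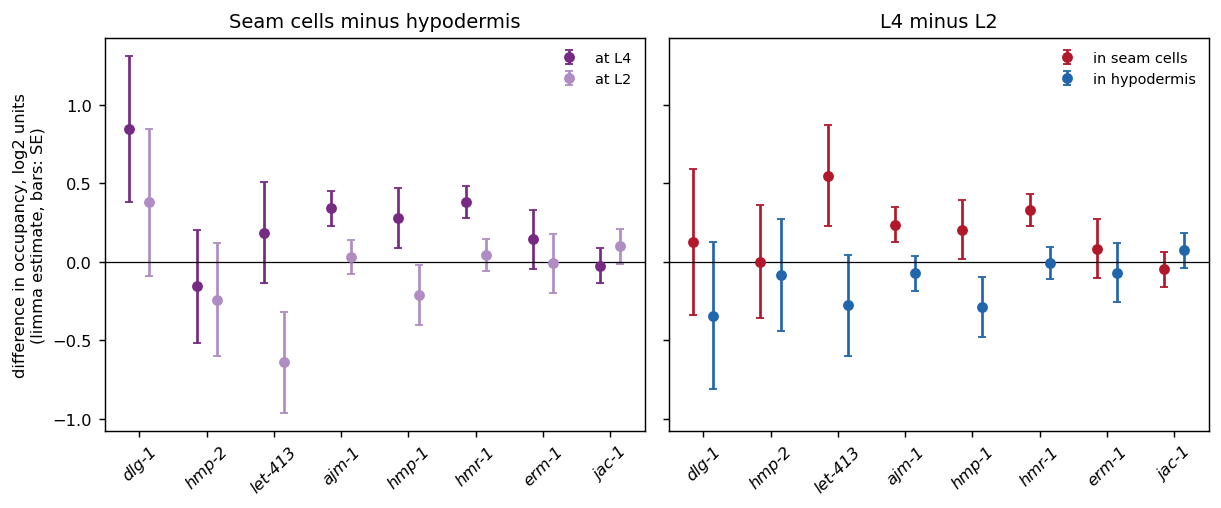
Differences in gene-body occupancy (log2 units, vertical axis) with limma standard errors (bars) for the 8 genes. The left panel shows seam cells minus hypodermis at L4 and L2 and the right panel L4 minus L2 in seam cells and hypodermis. *dlg-1* at L4 (0.84) and *let-413* at L2 (−0.64) are the extremes of the left panel, and no difference passed adjustment over 19983 genes.

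Between stages, L4 was set against L2 within each cell type. In seam cells, 7 of 8 genes had a higher mean at L4, with *hmr-1* 0.33 higher (SE 0.10, limma adjusted p = 0.47) as the only one under an unadjusted 0.05, where 8.81% of all genes were, and 0.0% passed adjustment. The L4 values were above the L2 values without overlap for *ajm-1*, *hmr-1* and *let-413* (3 of 8, 11.1% of all genes), and for none below (24.1%). The largest change, that of *let-413* (0.55, SE 0.32, adjusted p = 0.70), did not pass. In the hypodermis 1 of 8 had a higher mean at L4 and none was under an unadjusted 0.05 (4.38% of all genes, 0.0% adjusted), with the largest difference at *dlg-1* (−0.34, SE 0.47). Here L4 lay above L2 without overlap for *jac-1* (9.91% of all genes) and below it for *dlg-1* and *hmp-1* (18.5%). The stage change in seam cells minus that in the hypodermis was positive for 7 of 8 genes, largest for *let-413* (0.82, SE 0.45, limma adjusted p = 0.90), and none was under an unadjusted 0.05 (5.89% of all genes, 0.0% adjusted). Over all genes the median L4 minus L2 difference was −0.06 in seam cells and −0.01 in the hypodermis. The median of the seam change minus the hypodermis change was −0.05. The share of all genes with each sign is not given, so these counts of signs have no background. An exact permutation test of 2 values against 2 cannot give a two-sided p below 0.333.

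By group, 4 genes had their highest mean in seam cells at L4 (*ajm-1*, *dlg-1*, *hmr-1* and *erm-1*), 3 in hypodermis at L2 (*hmp-1*, *hmp-2* and *let-413*) and 1, *jac-1*, in seam cells at L2. Replicates differed in a common direction in the hypodermis, where replicate 2 was above replicate 1 for 0 genes at L4 and 1 at L2, against 4 genes in seam cells at L4 and 6 at L2. The share over all genes is not given, and by rank among all genes the direction was mixed. In hypodermis at L4 *ajm-1* had 0.49 and 0.22 but was above 83.7% and 85.2% of genes. There *dlg-1*, *hmp-1* and *jac-1* also ranked higher in replicate 2, and the other genes ranked lower.

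A wider set of 32 junction, polarity and cortex genes in 5 lists gave medians of 0.29 in seam cells at L4, 0.25 in seam cells at L2, 0.07 in hypodermis at L4 and 0.21 in hypodermis at L2. Of these, 5 passed as higher than control in seam cells at L4 (*picc-1*, *cdh-3*, *sma-1*, *unc-70* and *nmy-1*) and 1 as lower (*nmy-2*), where 2.56% and 0.771% of all genes did, while 2 passed as higher in hypodermis at L2 (*pkc-3* and *unc-70*), where 5.33% of all genes did, and none in the other groups. Among 9 PAR, aPKC, Crumbs and lateral polarity genes the highest means over groups were those of *par-5*, a phosphoserine-binding adaptor (1.37), and *par-1*, a kinase (0.65). *par-5* reached 0.82 ± 0.92 in seam cells at L4, 1.83 ± 0.48 in seam cells at L2, 1.33 ± 0.20 in hypodermis at L4 and 1.49 ± 0.19 in hypodermis at L2 (SD, n = 2). Of 10 other junction genes, *picc-1* (0.41) and *magi-1* (0.27) came first, and *cdh-3*, a Fat-like cadherin, had 0.79 ± 0.35 in seam cells at L4 and 0.26 ± 0.04 in seam cells at L2, against −0.30 ± 0.12 in hypodermis at L4 and −0.11 ± 0.01 in hypodermis at L2. The membrane skeleton genes were led by the spectrins *unc-70* (1.03, between 0.98 and 1.10 in every group) and *sma-1* (0.71), and 6 actomyosin genes by the non-muscle myosin *nmy-1* (0.98) and the light chain *mlc-4* (0.58). In the scaffold of LIN-2, LIN-7 and LIN-10, the highest means over groups were 0.02 (*lin-10*) and −0.02 (*lin-7*).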

How the data were processed

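The authors sequenced DamID libraries of 16 samples and mapped the reads (Bowtie2 2.3.4, Bowtie and SAMtools 1.9 per the labels). They deposited, for each GATC fragment of WBcel235, the log2 ratio of a dam:rpb-6 sample to a dam:NLS-GFP control. The 16 profiles (each of 2 replicates over each of 2 controls, in 4 groups) hold 269057 fragments each, whose end coordinates all lie at a GATC. Between 14.0% and 44.6% of the log2 scores of a profile are exactly 0. Read counts are not used here, so the depth of each sample is unknown. The deposited averaged profiles pool all 4 profiles of a group and were used only as a check, and the deposited gene lists hold the authors' own false discovery rates and mean log2 values, which were not used.

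Replicate 1 was taken over control 1 and replicate 2 over control 2 (numbers from the profile names), except in seam cells at L4, where replicate 1 was taken over control 2 and replicate 2 over control 1. Gene-body means weighted by overlap were fitted with limma 3.58.1 (R 4.3.3, 4 group means, residual df 4, Benjamini-Hochberg over 19983 genes, adjusted p under 0.05), after a check on simulated data. Tables were made with Python 3.11.15. Only the spread between samples is tested, which may be in part technical. The genes described, the wider lists and the markers were chosen with earlier results of these data known. Genes named from each wider list are the 2 with the highest mean over groups, those that passed, and the genes a marker list turns on, while the fragments, spans and sites named were chosen for their values. The L4 and L2 animals of a replicate came from 1 population, so the stage contrasts were also fitted with that block. Correlations of the deviations from group means across genes were −0.12 between seam L4 and L2 and 0.23 between hypodermis L4 and L2. Across cell types only the numbers are shared (0.04 at L4 and −0.13 at L2). Alternatives covered the pairing to controls, the weighting of fragments, zeros, scaling, transcript spans, the variance model and leaving out each replicate. The limma fit of single fragments, the omission of tRNA fragments, the short spans of *hmr-1* and *jac-1* and a crossed seam pairing were added after the data were seen. Sequences were read from the WBcel235 genome.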

Additional observations from a re-analysis of the deposited data

Results flagged for a closer look

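In 2 genes, with replicates paired by number, both populations moved one way with stage in seam cells and the other way in the hypodermis. For *let-413* the L4 minus L2 differences were 1.08 and 0.02 in seam cells, against −0.10 and −0.45 in hypodermis, and the stage change in seam cells minus that in hypodermis was 0.82 (SE 0.45, limma adjusted p = 0.90). For *hmp-1* they were 0.38 and 0.03 in seam cells, against −0.13 and −0.44 in hypodermis, with a difference of 0.49 (SE 0.27, limma adjusted p = 0.90). Neither difference between the cell types passed the test. With seam numbers crossed, the seam differences were 0.52 and 0.58 for *let-413* but −0.12 and 0.53 for *hmp-1*, so that the common direction of *hmp-1* depended on the pairing. With pairing by number, 1 seam population carried nearly all of the seam change in both genes. Its L2 value, that of replicate 1, was the lowest of the 8 values of the gene. With seam numbers crossed, the *let-413* change was shared by both differences. Pairing by number also changes the control in seam cells, as replicate 1 was taken over control 2 at L4 and control 1 at L2.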

How the results depend on the processing

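Under the alternatives, 385 values on the set as a whole stayed in the range set for them and 48 moved. The 385 overstate stability, because many of them had little room to move. In the contrasts of cell types and stages 0 genes of the genome passed, so the count for the 8 genes began at 0. A setting that does not touch a group returned its value unchanged. The seam L2 median (0.19) counted as unchanged even at 0.05, as its 2 replicate medians had an SD of 0.24. On single genes or fragments, 1029 values kept their direction and side of the threshold or their size, 28 fell below the threshold, 18 passed it, 20 moved and 9 reversed. Precision is limited by 2 replicates a group and 1 shared estimate of spread, and the depth of each sample is unknown. Where a value moved, the cause was not tested.

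The median of the 8 genes in seam cells at L4 (0.49) was 0.21 as a median of fragments, 0.59 with fragments of 1 gene only, 0.27 with the profile left out put back, 0.61 with the short spans, and 0.39 to 0.50 without 1 replicate. In seam cells at L2 (0.19) it was 0.08 with the other pairing to controls, 0.05 as a median of fragments, and 0.09 to 0.43 without 1 replicate. In hypodermis at L4 it was 0.42 with unweighted fragments, and in hypodermis at L2 0.60 unweighted and 0.31 as a median of fragments. Of the 8 genes, those that passed over control in hypodermis at L2 (1) were 2 with unweighted fragments and 3 with both controls averaged, and 0 with the other pairing to controls, with the profile put back, after quantile normalisation, without fragments with or within 1 kb of a tRNA gene, and with an intensity trend. With unweighted fragments, both controls averaged or quantile normalisation, 1 gene passed in hypodermis at L4 and 1 in seam cells at L2, against 0. With both controls averaged the replicates of a group share controls and are not independent, so passes there are weaker evidence. The highest counts of genes of the genome given below came from that setting. In seam cells at L4, 0 passed as a median of fragments or with the profile put back. Without 1 replicate, 0 to 2 passed in seam cells at L4 and 0 to 1 in hypodermis at L2.

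With both replicates above log2 0.5 in place of 1, the counts were 2 in seam cells at L4, 1 in seam cells at L2, 1 in hypodermis at L4 and 3 at L2 there, while at 1.5 the count in hypodermis at L2 was 0. Above 1, seam cells at L2 had 1 without fragments at 0 or after quantile normalisation, seam cells at L4 had 0 with the profile put back and 2 with the short spans, and hypodermis at L2 had 0 as a median of fragments or after quantile normalisation. Genes without overlap were 1 between cell types at L2 with each median set to 0, 1 at L4 with the profile put back, 5 between stages in seam cells with the other pairing and 0 with the profile put back, and 1 between stages in hypodermis with the other pairing.

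*dlg-1*, which missed in every group, passed in seam cells at L4 without fragments at 0 (adjusted p = 0.020), with both controls averaged (0.043), after quantile normalisation (0.015), without fragments within 1 kb of a tRNA gene (0.049) and without either seam L2 replicate (0.027). It passed in seam cells at L2 after quantile normalisation (0.020), and in hypodermis at L2 without fragments at 0 (0.047) and without either seam L2 replicate (0.029).

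With the profile put back, seam cells minus hypodermis at L4 reversed to −0.012 for *ajm-1* and −0.10 for *dlg-1*. Without 1 replicate, the sign of single groups was not fixed: in seam cells at L4 *jac-1* ranged from −0.063 to 0.21, in seam cells at L2 *hmp-1* from −0.027 to 0.47, *let-413* from −0.12 to 0.44 and *erm-1* from −0.17 to 0.33, in hypodermis at L4 *hmr-1* from −0.031 to 0.20 and *erm-1* from −0.12 to 0.15, and in hypodermis at L2 *jac-1* from −0.010 to 0.052.

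With the replicate block by population, L4 minus L2 of *hmr-1* in seam cells stayed at 0.33 (limma adjusted p = 0.58), and 0 of the 8 genes passed in any contrast, by population, by number across cell types, or with seam numbers crossed. Genes of the genome passing over control numbered 666 in seam cells at L4 (0 to 4781 over the alternatives), 49 in seam cells at L2 (0 to 1726), 327 in hypodermis at L4 (0 to 3473) and 1292 in hypodermis at L2 (543 to 5124), and without 1 replicate 2 to 662, 0 to 246, 1 to 207 and 0 to 1290.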
